A study of Mus musculus with 8 samples.

Results

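The genes described here are 5 markers of the upper hair follicle and its junctional zone, Lrig1, Ly6a, Gata6, Krt79 and Defb6, out of 28791 gene symbols present in both deposited expression tables. They were taken by name, and each had 1 row in each table. The junctional zone, or isthmus, is the stretch of follicle between the bulge, where the hair follicle stem cells lie, and the infundibulum, which opens to the skin surface; the sebaceous gland joins the follicle there. In mouse skin this region is kept up largely by its own stem cells, which carry Lrig1 and are distinct from the CD34-positive cells of the bulge. Their progeny form the infundibulum, the sebaceous gland and its duct, and cells of the upper follicle can contribute to the surface epidermis after wounding.

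Levels were read in 4 RNA sequencing libraries of sorted mouse back skin cells, with 1 library in each group. The first pair came from females at postnatal day 99 on a C57BL6/129Sv background: cKO cells of genotype K15CrePGR;Ctnnb1fl/fl;Rosa-YFPfl/stop/fl, and Het cells of genotype K15CrePGR;Ctnnb1+/fl;Rosa-YFPfl/stop/fl. Ctnnb1 encodes β-catenin, the transducer of canonical Wnt signals. Both groups thus carried the Cre, the YFP reporter and at least 1 floxed allele. The Cre is fused to a progesterone receptor and driven by a Krt15 promoter, which is known to act mainly in the bulge, so the model is not one of the upper follicle as a whole. The labels place this pair in telogen in the growth protocol and at the start of anagen in the design text. The second pair came from males at postnatal day 24 on C57BL6, both groups Axin2LacZ/+, at the passage from telogen to anagen: bulge cells sorted into LacZ-positive and LacZ-negative by the activity of the β-galactosidase reporter. Axin2 is a Wnt target gene, and the reporter takes the place of 1 Axin2 allele. The series holds 8 samples; the other 4, from chromatin immunoprecipitation, were left out.

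Expression is given as FPKM, which scales the fragments of a gene by its transcript length and by the size of the library, and the number of reads behind them is unknown. A difference is the log2 of FPKM + 1 in the first-named library over the second. Genes were measured where at least 1 library of the pair reached 1 FPKM, and 2-fold or more means a log2 difference of 1 or more, or of -1 or less. With 1 library per group no difference has a replicate check or a p-value, and every statement is about these libraries. How the tables were scaled to each other is not known, and the pairs differ in age, sex, strain and sort. Levels are therefore set side by side across pairs without a comparison. The checks of the labels were uneven. Axin2 stood at 2.12 FPKM in the library labelled cKO and 16.3 FPKM in the library labelled Het, and at 19.0 FPKM in LacZ-positive cells, against 9.10 FPKM in LacZ-negative cells. Ctnnb1 stood at 370 FPKM in the library labelled cKO and 251 FPKM in the library labelled Het, opposite to a loss; a value for the whole gene does not resolve a floxed part, and its interval holds 4 genes, so it does not check the genotype. The bulge marker Cd34 was present in all 4 libraries, at 752 FPKM in cKO, 645 in Het, 223 in LacZ-positive cells, against 516 in LacZ-negative cells. The Axin2 interval holds 2 genes and the Cd34 interval 5, so reads of neighbours can enter those values too.

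The 5 genes differ in kind. Krt79 is a type II keratin of the upper follicle that marks the earliest cells of the follicle canal. Defb6 encodes a secreted β-defensin, a small antimicrobial peptide. Lrig1 encodes a membrane protein that lowers signalling by the epidermal growth factor receptor family, and Ly6a encodes the anchored surface antigen Sca-1, found on infundibular and interfollicular keratinocytes and low or absent in the bulge. Gata6 encodes a zinc finger transcription factor of the upper follicle and sebaceous duct. The sequence at the gene start was taken from RefSeq's promoter table for 3 of the 5, Lrig1, Krt79 and Defb6. None is given for Ly6a or Gata6, which does not mean that RefSeq's table lacks them. All 3 are shown, since they include the members with the largest (Defb6) and the smallest (Lrig1) log2 difference in the LacZ pair. Each window runs 5′ to 3′ from 250 bases before the start to 50 bases after it. Capitals mark AGATAA, a sequence of the kind bound by GATA factors, and CTTTGA, a sequence of the kind bound by the TCF/LEF partners of β-catenin, searched on both strands; the last appears as TCAAAG when it lies on the opposite strand.
Krt79 (GRCm38.p6 chr15:101940275-101940574, minus strand): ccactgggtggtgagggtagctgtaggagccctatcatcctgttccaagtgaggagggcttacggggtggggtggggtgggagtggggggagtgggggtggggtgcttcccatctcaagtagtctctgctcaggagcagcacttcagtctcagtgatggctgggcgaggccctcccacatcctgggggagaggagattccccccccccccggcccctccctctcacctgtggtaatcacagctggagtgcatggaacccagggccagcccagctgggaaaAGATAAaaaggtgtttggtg
Defb6 (GRCm38.p6 chr8:19225228-19225527, plus strand): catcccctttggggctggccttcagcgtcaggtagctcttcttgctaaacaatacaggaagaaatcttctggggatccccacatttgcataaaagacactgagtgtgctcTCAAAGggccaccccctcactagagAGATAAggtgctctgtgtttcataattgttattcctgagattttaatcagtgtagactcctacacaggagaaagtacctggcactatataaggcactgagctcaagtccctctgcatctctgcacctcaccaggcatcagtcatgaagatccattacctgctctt
Lrig1 (GRCm38.p6 chr6:94700096-94700395, minus strand): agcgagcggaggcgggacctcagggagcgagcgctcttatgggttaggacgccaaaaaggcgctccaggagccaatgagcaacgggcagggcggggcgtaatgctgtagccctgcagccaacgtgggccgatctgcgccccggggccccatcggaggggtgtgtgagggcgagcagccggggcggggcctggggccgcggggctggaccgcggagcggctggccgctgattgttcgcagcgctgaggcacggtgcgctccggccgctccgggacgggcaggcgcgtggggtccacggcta

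By its first base, AGATAA lay at base 31 in the Krt79 window, counting the start as base 1. It lay 115 bases before the start in the Defb6 window and was not in the Lrig1 window. CTTTGA was found once, on the opposite strand of the Defb6 window 140 bases before the start. Of all 32851 windows of the same length, 11.2% held AGATAA and 16.0% held CTTTGA on either strand, and the motifs do not overlap in the printed windows. These matches describe letters only. The windows also differed in composition: Krt79 had 62.0% G and C with 3 CpG, Defb6 had 47.0% with 1 CpG, and Lrig1 had 73.0% with 35 CpG, against medians of 52.7% and 7 over all windows. The Lrig1 window was richer in G and C than 94.3% of all windows.

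Krt79 (ENSMUSG00000061397, mm9 chromosome 15, 101759762 to 101770755) stood at 18.5 FPKM in the cKO library and 21.7 in the Het library. In the LacZ pair it stood at 362 FPKM in LacZ-positive cells, against 119 in LacZ-negative cells. The keratin was thus near equal in the genotype pair, with a log2 difference of -0.21, and 3.03-fold higher by FPKM in the reporter-positive cells, with a log2 difference of 1.59. It ranked 252nd of 19451 genes above 0 in LacZ-positive cells and 852nd of 18687 in LacZ-negative cells.

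Defb6 (ENSMUSG00000050756, mm9 chromosome 8, 19225477 to 19228209) was the highest of the 5 in every library. It stood at 59.2 FPKM in the cKO library and 64.9 in the Het library, a log2 difference of -0.13. Its level was 1031 FPKM in LacZ-positive cells, against 241 in LacZ-negative cells, a log2 difference of 2.09 and a 4.28-fold ratio. With that level the defensin ranked 99th of all genes above 0 in the LacZ-positive library and 425th in the LacZ-negative library. Only 165 of 13283 genes had a more positive difference in the LacZ pair, the smallest number for any of the 5.

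Ly6a (ENSMUSG00000075602, mm9 chromosome 15, 74825307 to 74828064) stood at 8.69 FPKM in the cKO library and 8.16 in the Het library. It stood at 73.9 FPKM in LacZ-positive cells, against 22.2 in LacZ-negative cells. The surface antigen therefore differed little by genotype (0.08 on the log2 scale) and by 3.32-fold between the reporter populations (1.69 on the log2 scale), where 227 genes had a more positive difference. Ly6 genes are close copies of each other, and the sources used here do not give how reads shared between copies were counted.

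Lrig1 (ENSMUSG00000030029, mm9 chromosome 6, 94450307 to 94650152) stood at 37.2 FPKM in the cKO library and 30.7 in the Het library, a log2 difference of 0.27. Its level was 39.8 FPKM in LacZ-positive cells, against 23.0 in LacZ-negative cells, a log2 difference of 0.77 and a 1.73-fold ratio. Lrig1 was the only member within 2-fold in the LacZ pair, although 93.3% of measured genes ranked below it from the most negative to the most positive difference. Its interval in the tables is shared with Slc25a26, a mitochondrial carrier gene, which stood at 3.71 FPKM in LacZ-positive cells, against 4.76 in LacZ-negative cells and so did not move with Lrig1.

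Gata6 was the lowest of the 5 in every library. It stood at 0.579 FPKM in the cKO library and 0.695 in the Het library, under the minimum of 1 FPKM in both, so that no difference is counted; the log2 of FPKM + 1 differed by -0.10. It stood at 3.69 FPKM in LacZ-positive cells, against 0.715 in LacZ-negative cells, a 5.16-fold ratio of FPKM and a log2 difference of 1.45. Because its level in LacZ-negative cells is below the pseudocount of 1, the log2 difference understates the ratio, and the call rests on 1 low value of unknown depth. With a pseudocount of 5 the log2 difference was 0.60, inside the 2-fold line. Gata6 (ENSMUSG00000005836) shares its interval on mm9 chromosome 18, 11049084 to 11085633, with the clone gene 1010001N08Rik, which stood at 0.426 FPKM in LacZ-positive cells, against 0.119 in LacZ-negative cells.

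**Figure D1:**
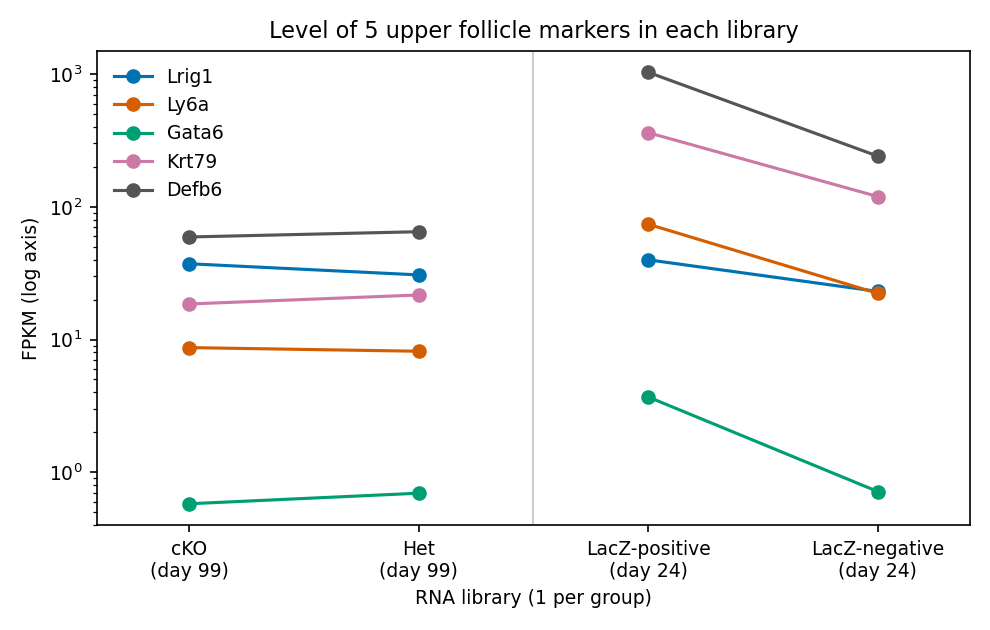
FPKM of the 5 genes on a log axis in the cKO, Het, LacZ-positive and LacZ-negative libraries, 1 library per group. Lines join the libraries of a pair, and the pairs come from separate tables whose scaling to each other is not known. All 5 genes are higher in LacZ-positive than in LacZ-negative cells, from 1.73-fold for Lrig1 to 5.16-fold for Gata6, while in the genotype pair the ratios of cKO to Het lie between 0.833 and 1.21.

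Between the genotypes, few genes of any kind passed the 2-fold line. Of the 4 markers that reached 1 FPKM in the cKO and Het libraries, 0 were higher and 0 were lower by 2-fold or more; over all 13014 genes measured, 1.80% were higher and 2.29% lower, so a count of 0 among 4 is near the background and says nothing particular about the markers. The members' median log2 difference was -0.02, against 0.06 for all measured genes. Lrig1 and Ly6a were on the higher side and Krt79 and Defb6 on the lower side, and all 4 lay inside the central 95% of genes with at least 5 FPKM in each library of the pair, which ran from -0.50 to 0.61. The authors' deposited table, which adds no pseudocount, gives log2 fold changes of cKO over Het of 0.28 for Lrig1, 0.09 for Ly6a, -0.26 for Gata6, -0.23 for Krt79 and -0.13 for Defb6.

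In the LacZ pair 4 of the 5 markers, Defb6, Ly6a, Krt79 and Gata6, passed the 2-fold line on the LacZ-positive side and 0 passed it on the LacZ-negative side. Over all 13283 genes measured, 4.67% were higher and 2.60% were lower. The members' median log2 difference was 1.59, against -0.13 for all measured genes. With differences centred on the median of genes with at least 5 FPKM in each library, which was -0.17, the share of higher genes among all past the line was 78.2%, against 64.2% without centring. Centring moved Lrig1 to 0.94, still inside the line, and the other 4 to between 1.62 and 2.26. In RNA of sorted populations a larger share of cells of a type and more of an RNA per cell cannot be told apart.

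**Figure D2:**
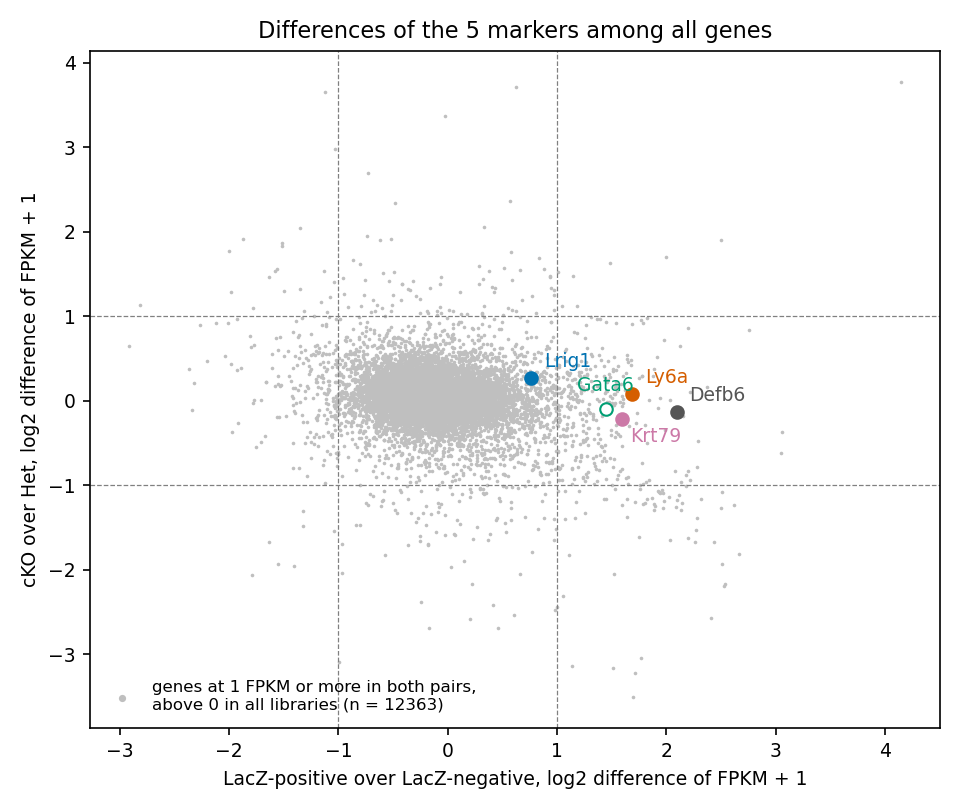
Each grey point is 1 of 12363 genes at 1 FPKM or more in both pairs and above 0 in all 4 libraries, placed by its log2 difference of FPKM + 1 in the LacZ pair (horizontal axis) and in the genotype pair (vertical axis); coloured points are the 5 markers, with Gata6 open because it was under 1 FPKM in the genotype pair, and dashed lines mark 2-fold. Ly6a, Gata6, Krt79 and Defb6 lie right of the line at 1 on the horizontal axis, and all 5 lie between -0.21 and 0.27 on the vertical axis.

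The order of the levels was read within each library, and the pairs also differ in age, sex, strain and sort. In both the cKO and the Het library it was Defb6, Lrig1, Krt79, Ly6a and Gata6, with the highest 102-fold and 93.4-fold above the lowest. In LacZ-positive cells it was Defb6, Krt79, Ly6a, Lrig1 and Gata6. In LacZ-negative cells Lrig1 at 23.0 and Ly6a at 22.2 FPKM were neighbours with no spread to separate them, and the rest of the order was the same. A ratio between members of the same library does not depend on how that library was scaled. Krt79 was 0.498 times Lrig1 in the cKO library and 0.706 times Lrig1 in the Het library, and 9.08 times Lrig1 in LacZ-positive and 5.18 times Lrig1 in LacZ-negative cells. Defb6 was 1.59 times Lrig1 in the cKO library and 2.12 times in the Het library, and 25.9 times in LacZ-positive and 10.4 times in LacZ-negative cells. Relative to the stem cell marker Lrig1, the keratin and the defensin were thus higher in LacZ-positive than in LacZ-negative cells, and lower in the cKO than in the Het library. Summed over the 5, the level was 124 FPKM in the cKO library and 126 in the Het library, and 1510 FPKM in LacZ-positive cells, against 406 in LacZ-negative cells, of which Defb6 alone made up 68.3% and 59.3%.

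**Figure D3:**
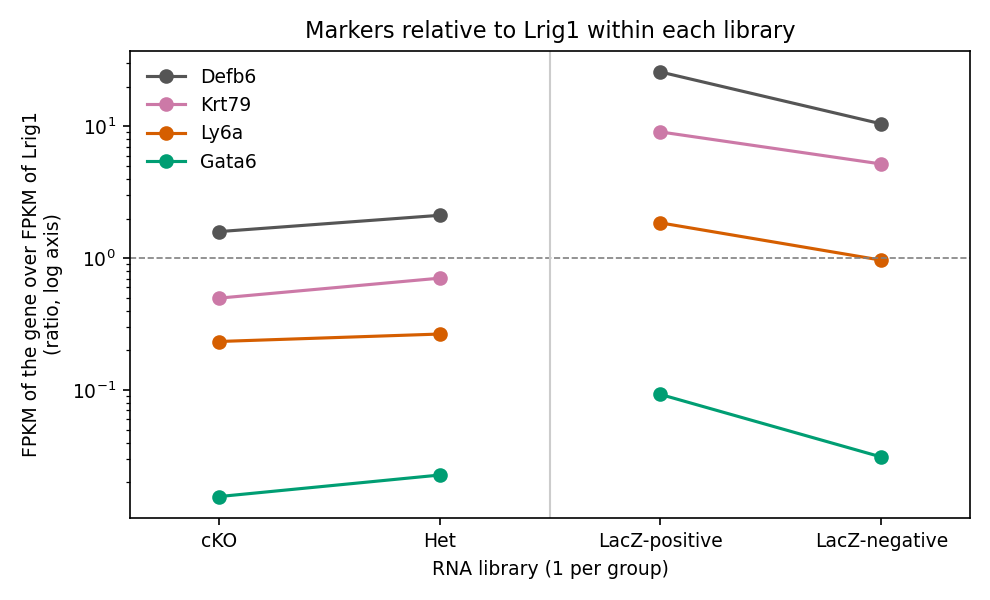
FPKM of Defb6, Krt79, Ly6a and Gata6 divided by the FPKM of Lrig1 in the same library, on a log axis; the dashed line marks equality with Lrig1, and lines join the libraries of a pair. Ly6a is 1.85 times Lrig1 in LacZ-positive and 0.966 times in LacZ-negative cells, and Krt79 lies under Lrig1 in both day 99 libraries.

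Other markers of the region went partly with the 5. The list held 8 genes, of which 7 are in the tables, among them Plet1, a surface marker of the junctional zone that the tables carry as 1600029D21Rik. In the LacZ pair 3 of 7 were higher by 2-fold or more and 0 lower, and the median was 0.48. Cst6, a cystatin protease inhibitor of the upper follicle, stood at 101 FPKM in LacZ-positive cells, against 34.7 in LacZ-negative cells (1.51 on the log2 scale). Lgr6, an R-spondin receptor of isthmus stem cells, stood at 34.9 and 11.6 FPKM in LacZ-positive and LacZ-negative cells (1.51), and Atp6v1c2, a proton pump subunit gene that shares its interval with Pdia6, stood at 40.3 and 17.4 FPKM (1.17). Plet1, like Lrig1, stayed within 2-fold, at 27.5 FPKM in LacZ-positive cells, against 19.4 in LacZ-negative cells (0.48). In the genotype pair 0 of 7 were higher and 1 was lower by 2-fold or more, at a median of -0.39. That gene was Lgr6, at 2.04 FPKM in the cKO library and 26.2 in the Het library (-3.16), against differences between -0.21 and 0.27 for the 4 measured markers.

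Relatives of each marker show how far the pattern of the LacZ pair extended. Of 8 measured Ly6 family genes, 5 passed the line on the LacZ-positive side and 0 on the other, at a median of 1.20: Ly6c1 (1.63), Ly6d (1.54), Ly6g6e (1.43), Ly6g6c (1.32) and Ly6e (1.09). Ly6d, a surface protein of stratified epithelium, stood highest, at 436 FPKM in LacZ-positive cells, against 149 in LacZ-negative cells. Within 200 kb of Ly6a, Ly6c1 and Ly6e were the measured genes, and both were past the line. In the genotype pair 0 of 7 measured Ly6 genes were past the line and the median was 0.24. That count is near the shares over all genes of this pair, 1.80% higher and 2.29% lower.

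The type II keratins, the family of Krt79, went both ways in the LacZ pair, with 3 of 10 measured members higher, 3 lower and a median of 0.04. Krt1 (1.54), Krt77 (1.22) and Krt78 (1.03), expressed in suprabasal epidermis, were higher in LacZ-positive cells, and all 3 lie within 200 kb of Krt79. The 7 genes measured in that stretch went both ways. Tenc1 passed the line on the LacZ-negative side, at 12.3 FPKM in LacZ-positive cells, against 26.0 in LacZ-negative cells (-1.03). Krt71 (0.63), Spryd3 (-0.32) and Eif4b (-0.15) stayed inside the line. Krt6a (-1.50), Krt75 (-1.42) and Krt6b (-1.35), keratins of the companion layer, were lower. The basal keratin Krt5, the highest of the family, stood at 5693 FPKM in LacZ-positive cells, against 8690 in LacZ-negative cells (-0.61). In the genotype pair Krt6b (1.32) and Krt6a (1.29) were the members past the line, both higher in the cKO library.

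Of 12 other β-defensins, 4 reached 1 FPKM in the LacZ pair and 2 in the genotype pair. Defb1 stood at 29.9 FPKM in LacZ-positive cells, against 8.69 in LacZ-negative cells (1.67), and Defb8 at 4.88 and 0.301 FPKM (2.18), on the side of Defb6. Defb14, the measured gene within 200 kb of Defb6, and Defb2 are listed at 0 in LacZ-positive cells and at 5.20 and 1.85 FPKM in LacZ-negative cells; Defb14 is also listed at 0 in the cKO library and at 4.95 FPKM in the Het library. A 0 beside such levels may be an estimate that failed, so no fold is printed for them; the counts over all genes include both. Of 5 other GATA genes, Gata3, which acts in epidermis and inner root sheath, was the measured one, at 51.7 FPKM in LacZ-positive cells, against 43.5 in LacZ-negative cells (0.24), well above Gata6. It stood at 25.9 FPKM in the cKO library and 48.1 in the Het library (-0.87). The relatives and targets of Lrig1 held 0 genes past the line in either pair, of 7 measured in the LacZ pair (median 0.13) and 6 in the genotype pair (median -0.02). Over all measured genes 4.67% were higher and 2.60% lower in the LacZ pair. The shares in the genotype pair were 1.80% and 2.29%, so counts of 0 are near the background. Of the 7 in the LacZ pair, 5 were on the higher side in LacZ-positive cells and 2 on the lower. Egfr, the receptor on which LRIG1 is known to act, stood at 41.9 FPKM in LacZ-positive cells, against 38.2 in LacZ-negative cells; its level was 47.4 FPKM in the cKO library and 44.6 in the Het library.

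Markers of neighbouring compartments also differed in the LacZ pair. All 11 interfollicular differentiation genes were on the higher side in LacZ-positive cells, and 7 were past the line, with a median of 1.05: Krt1, Mt4 (1.49), Krt10 (1.24), Krt77, Krtdap (1.15), Flg (1.05) and Flg2 (1.05). Their summed level was 4799 FPKM in LacZ-positive cells, against 2258 in LacZ-negative cells. Of 10 cell cycle genes 9 passed the line on the same side, at a median of 2.42 and a summed level of 285 and 105 FPKM in LacZ-positive and LacZ-negative cells. Of 15 bulge genes, Fgf18 (-1.61), Tbx1 (-1.31) and Cd34 (-1.21) were lower by 2-fold or more and the median was -0.52. Krt15 is at 5951 FPKM in LacZ-positive cells and listed at 0 in LacZ-negative cells, where the 0 may be an estimate that failed; the median of the 14 bulge genes without it was -0.56. Of 11 measured sebaceous gland genes 1 was past the line, Mgst1 (1.11), and the median was 0.06. Over all genes measured in this pair 4.67% were higher and 2.60% lower, so that count of 1 is near the background. The part of these compartments in the values of the 5 markers was not tested.

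In the genotype pair few genes of these compartments passed the line, apart from the cell cycle genes. Over all genes measured in this pair 1.80% were higher and 2.29% lower, so counts of 0 or 1 in these lists are near the background. Of 11 interfollicular differentiation genes 0 were past the line, with a median of 0.12. Of 15 bulge genes 1, Krt24 (-1.43), was lower, with a median of 0.11, and of 10 sebaceous gland genes 1, Scd3 (1.20), was higher, with a median of 0.21. Of 10 cell cycle genes 8 were lower in the cKO library, with a median of -1.65, while the 4 measured markers stayed within 2-fold.

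**Figure D4:**
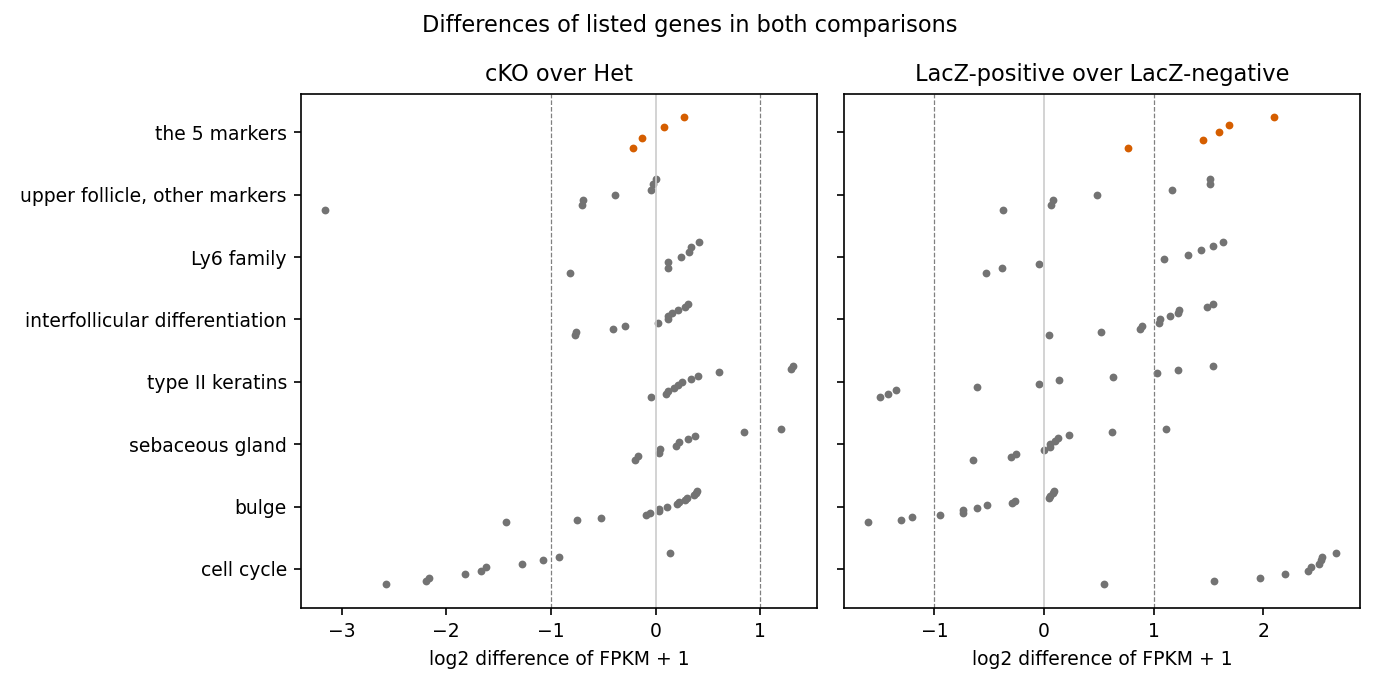
Log2 difference of FPKM + 1 for each measured gene of 8 groups, in the genotype pair (left panel) and the LacZ pair (right panel); each point is 1 gene, genes listed at 0 in either library are left out, points are spread vertically for legibility and dashed lines mark 2-fold. In the LacZ pair the 5 markers (0.77 to 2.09), the interfollicular differentiation genes and the cell cycle genes all lie on the higher side. Most bulge genes lie on the lower side there. In the genotype pair the 4 measured markers lie between -0.21 and 0.27.

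Ly6a is also known on endothelial cells, fibroblasts and leukocytes, so their markers were read in the same libraries. Of 6 endothelial markers 0 reached 1 FPKM in either pair, with a summed level of 1.18 FPKM in LacZ-positive cells, against 1.13 in LacZ-negative cells, and 0.337 and 0.423 FPKM in the cKO and Het libraries. The 8 leukocyte markers summed to 6.18 FPKM in LacZ-positive cells, against 3.94 in LacZ-negative cells, with Ptprc, the pan-leukocyte CD45 gene, at 0.0696 and 0.0253 FPKM; they summed to 8.76 and 5.62 FPKM in the cKO and Het libraries. The 6 fibroblast markers summed to 10.9 FPKM in LacZ-positive cells, against 18.1 in LacZ-negative cells, and to 23.1 and 14.7 FPKM in the cKO and Het libraries. Col1a1 and Col1a2 made up most of each sum, at 6.29 and 2.38 FPKM in LacZ-positive cells, against 13.1 and 4.34 in LacZ-negative cells. Dcn, a dermal proteoglycan gene, went the other way, at 2.16 FPKM in LacZ-positive cells, against 0.423 in LacZ-negative cells (1.15). Col1a1 was at 10.3 FPKM in the cKO library and 3.72 in the Het library (1.26). The 6 melanocyte markers summed to 29.0 FPKM in LacZ-positive cells, against 28.4 in LacZ-negative cells, and to 45.3 and 47.2 FPKM in the cKO and Het libraries. Mitf alone stood at 43.2 FPKM in the cKO library and 44.0 in the Het library, and Dct at 0.871 and 1.92 FPKM. In LacZ-positive cells Mitf was lower (9.41 FPKM, against 13.6 in LacZ-negative cells) and Dct higher (15.2, against 12.5). The part of these cell types in the Ly6a values was not tested.

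The genes nearest to each marker were found by the distance between the 2 log2 differences. The pool was 8452 genes at 5 FPKM or more in a library of each pair and above 0 in all 4 libraries. Names that begin with Gm, LOC, Mir, Snor, Rnu or n-R, or end in Rik or a numbered or plain -ps, were left out. Small RNA names in capitals, such as SNORA46, were kept. This likeness rests on 2 values per gene. For Krt79 they were Klf5 (at -0.29 in the genotype pair and 1.54 in the LacZ pair), a transcription factor of epithelial progenitors, Mill1 and Cst6 (-0.05 and 1.51). No neighbours are given for Gata6, which was under 1 FPKM in the genotype pair. For Ly6a they were Bbox1 (0.10 and 1.67), Skint9 (0.13 and 1.62) and Serpinb2, a serpin of stratified epithelium (0.05 and 1.59). For Defb6 they were Skint7 (-0.18 and 2.15), Gas7 and SNORA46, and for Lrig1 they were Fam69a, Zfp93 and Sh3bgrl2, with LacZ differences between 0.71 and 0.80. Skint7 and Skint9 belong to a family of immunoglobulin-like genes known from mouse epidermis and thymus. Mill1 and Skint7 share an interval with 1 other gene, Fam69a with 4, and Gas7 and SNORA46 with 3, so reads of neighbours can enter those values.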

How the data were processed

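RNA was read in 4 libraries of sorted hair follicle cells (cKO, Het, LacZ-positive and LacZ-negative, 1 each), grouped by the sample titles. The sources used here do not say if mice were pooled. The authors deposited FPKM, per the file headers, in 2 tables of 32091 rows. The first also holds the authors' log2 fold change of cKO over Het, copied for the 5 members. Named without roles in the submitters' processing notes are the builds mm9 and GRCm38 and the tools Cufflinks 2.1.1, TopHat and TopHat2 2.0.4; settings for multi-mapped reads, strand and scaling were not found in those notes. Coordinates are taken as mm9, since chromosome 7 runs to 152509964, past the last GRCm38 gene end of 145324059. FPKM keep no counts, so depth and counting error are unknown. The mitochondrial transfer RNA mt-Ts1 held 20.6% to 28.1% of summed FPKM, which can shift other values.

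With Python 3.11.15 and pandas 2.3.3, 25 symbols turned into dates were restored through Ensembl identifiers, rows of a symbol were summed, and log2 differences of FPKM + 1 were formed, with no test. Beside the members, 14 lists of 140 entries were used, 139 of them in the tables. Members and lists were chosen with earlier results of these data known, and the motifs after the sequences had been read. Genes named were drawn from the members, list genes past 2-fold, the highest gene of a list, Ctnnb1, Axin2, and the 3 genes nearest each member but Gata6 in the 2 differences. Cell cycle genes were given as counts, medians and sums without names, and the highest gene was not named for every list. Plet1, Ptprc and genes sharing or flanking an interval were added after their values were seen. The 10 alternatives changed the pseudocount (0.1, 5), the minimum (none, 5 FPKM), centring, upper-quartile scaling, row choice, small features, zeros and shared intervals.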

Additional observations from a re-analysis of the deposited data

How the results depend on the processing

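No paired analysis was possible because each group has 1 library. The count of markers past 2-fold was 0 in the genotype pair under all 10 alternatives. In the LacZ pair it was 4, or 3 where the pseudocount was 5 (Gata6 at 0.60), the minimum was 5 FPKM (Gata6 not measured) or shared intervals were left out (Gata6 and Lrig1 not measured). No marker changed direction: the log2 difference of LacZ-positive over LacZ-negative ran from 2.08 to 2.26 for Defb6, 1.53 to 1.86 for Ly6a, 1.56 to 1.76 for Krt79, 0.68 to 0.94 for Lrig1 and 0.60 to 2.22 for Gata6. Since each marker has 1 row, the minimum, row choice, small features, zeros and shared intervals could only change which markers were measured. A pseudocount cannot reverse a sign, so a direction could change only under centring and upper-quartile scaling. The count over all genes moved more. In the LacZ pair it was 966, and it was 1443 with a pseudocount of 0.1, 460 with a pseudocount of 5, 593 without small RNA, clone, Gm and Rik symbols, and 489 with genes alone in their interval, where fewer genes are measured. In the genotype pair it was 532, and it was 784, 303, 233 and 239 under the same settings in that order and 335 without genes listed at 0, a setting that gave 763 in the LacZ pair. The depth behind each value, the low ones of Gata6 included, is unknown.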
